A study of Homo sapiens with 8 samples.

Results

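The genes described here encode 4 matrix metalloproteinases (MMP1, MMP2, MMP7 and MMP14), the urokinase plasminogen activator PLAU and its receptor PLAUR, and 3 tissue inhibitors of metalloproteinases (TIMP1, TIMP2 and TIMP3). They were taken by symbol, and all 9 were found among the 54261 genes of a table of RNA-seq read counts. The table holds 8 libraries of human intestinal cell lines, 1 per line and condition. The untreated lines labelled normal intestinal epithelium are NCM460 and HIEC6, and the untreated colorectal cancer (CRC) lines are DLD1, HCT116 and HCT8. The 3 remaining libraries are DLD1, HCT116 and HCT8 labelled as treated with hypoxia, for which neither an oxygen level nor a duration is given in the sources used here. All lines were at passage P5 and carry no engineered change in the labels. With 1 library per line and condition, cell lines serve as the replicates of a group, and p-values measure the spread between these lines. Where the line enters a fit as a block, p-values measure how far the hypoxia difference varies between lines.

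Matrix metalloproteinases are zinc-dependent enzymes that cleave collagens and other proteins outside the cell, and most are made as inactive precursors. Urokinase, held at the cell surface by its receptor, turns plasminogen into plasmin, which cleaves fibrin and matrix proteins and can activate some metalloproteinases. TIMPs bind metalloproteinases and block them, and TIMP2 also takes part in the activation of MMP2 at the cell surface by MMP14. In tumours of the gut many of these genes are made by stromal cells, whereas MMP7 is typically made by the epithelial cells themselves.

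The libraries held 45519306 to 57374239 counts, so that 3 counts, taken here as the floor of detection, corresponded to 0.0523 to 0.0659 CPM (the count of a gene scaled to a library total of 1000000). Several libraries stood apart from their labels. The library labelled NCM460 correlated more closely with untreated HCT116 (r = 0.994 across genes, which are not independent replicates) than with HIEC6 (r = 0.924). Over 6 hypoxia response genes its median was 16.1 CPM, against at most 22.5 CPM in the untreated CRC lines and at least 91.0 CPM under hypoxia, although 1 of the 6, NDRG1, stood at 608 CPM. HIEC6 had high keratin KRT8 (4290 CPM), but the epithelial adhesion gene EPCAM stood at 0.176 CPM, the 7 intestinal epithelial markers summed to 0.935 CPM, and the mesenchymal filament gene VIM reached 1223 CPM. Other mesenchymal markers in HIEC6 went both ways. COL1A1 (46.0 CPM) and CDH2 (55.7 CPM) lay above each untreated CRC line, but COL1A2 (0.458 CPM) and COL6A3 (0.0882 CPM) lay below each. The descriptions of NCM460, DLD1 under hypoxia and HCT116 under hypoxia carry a second library code that the other 5 libraries lack. The first code differs between all untreated and all hypoxia libraries of the CRC lines, so the first code and treatment cannot be told apart.

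TIMP1 was the most abundant of the 9 RNAs in most libraries. On the scale of CPM per kilobase of the canonical transcript, which allows levels of different genes to be compared, TIMP1 was the highest in 7 of 8 libraries, at 93.6 to 150 CPM per kilobase. The exception was HIEC6, in which TIMP2 stood at 183 and TIMP1 at 87.8 CPM per kilobase. The 3 TIMPs together made up 88.7% of the summed CPM per kilobase of the 9 genes in HIEC6, 89.3% in untreated DLD1 and 91.2% in untreated HCT8. Their share was lower in untreated HCT116 (62.1%) and in NCM460 (49.3%), the untreated libraries with the most PLAU and PLAUR. In bulk RNA, fewer cells that make a gene and less RNA per cell cannot be told apart. The secreted proteases MMP1, MMP2 and MMP7 stayed at or below 0.678 CPM per kilobase in every library.

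**Figure D1:**
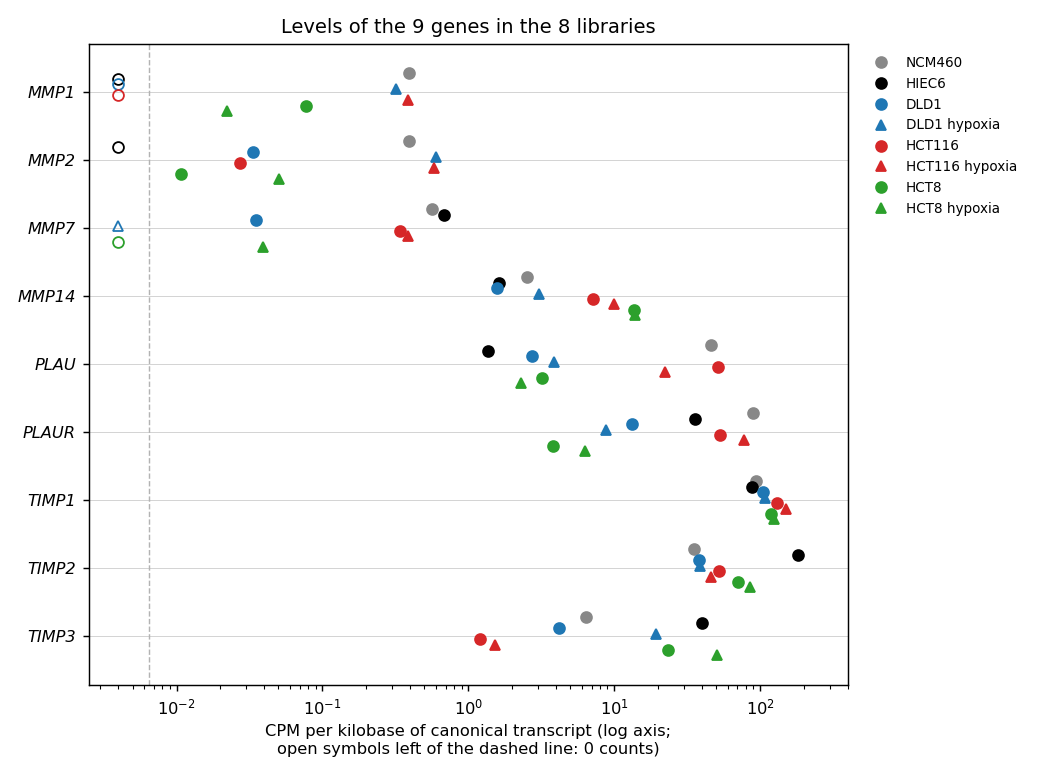
Level of each of the 9 genes (rows) in the 8 libraries, in CPM per kilobase of the canonical transcript on a log axis. Each symbol is 1 library, with circles for untreated and triangles for hypoxia libraries, and open symbols left of the dashed line mark 0 counts. MMP1, MMP2 and MMP7 lie at the left, at or below 0.678, and TIMP1 lies in a narrow band between 87.8 and 150.

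Of the 4 metalloproteinases, MMP14 was the most abundant. MMP14 (chr14:23305769-23318250, plus strand) encodes the membrane-anchored metalloproteinase MT1-MMP. Without treatment it stood at 5.78 CPM in DLD1, 26.3 in HCT116 and 50.4 in HCT8, beside 6.03 in HIEC6 and 9.35 in NCM460. Under hypoxia it stood at 11.2 CPM in DLD1, 36.7 in HCT116 and 51.5 in HCT8. Thus DLD1 and HIEC6 held the lowest levels and HCT8 the highest, with an 8.92-fold range over the libraries. These positions, and those of the other genes, are from GENCODE release 44 on GRCh37.

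MMP1 (chr11:102660132-102668891, minus strand), the interstitial collagenase, had 0 counts in each of HIEC6, DLD1 and HCT116, 8 in HCT8 and 38 in NCM460. Under hypoxia it had 36 counts in DLD1, 42 in HCT116 and 2 in HCT8. A count of 0 allows up to 0.0529 CPM in HIEC6, so MMP1 was not detectable there at this depth. MMP2 (chr16:55423612-55540603, plus strand), gelatinase A, had 0 counts in HIEC6, 68 in NCM460 and 6, 5 and 2 in untreated DLD1, HCT116 and HCT8. Its hypoxia libraries held 121 counts in DLD1, 113 in HCT116 and 8 in HCT8. Both genes were thus highest in the same 3 libraries. MMP7 (chr11:102391239-102401481, minus strand), matrilysin, had 43 counts in HIEC6, 31 in NCM460 and 2, 20 and 0 in untreated DLD1, HCT116 and HCT8. It had 0 counts in DLD1, 24 in HCT116 and 2 in HCT8 under hypoxia. MMP7 was at or under the floor in both DLD1 and both HCT8 libraries.

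PLAU (chr10:75668935-75677254, plus strand) divided the lines. It reached 108 CPM in NCM460 and 120 CPM in untreated HCT116, but 3.17 CPM in HIEC6, 6.39 in DLD1 and 7.46 in HCT8. PLAUR (chr19:44150247-44174699, minus strand) was highest in the same pair, with 122 CPM in NCM460 and 73.0 CPM in HCT116. It stood at 48.9 CPM in HIEC6, 18.2 in DLD1 and 5.22 in HCT8. HIEC6 therefore held the receptor at an intermediate level together with the lowest level of the activator.

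Among the inhibitors, TIMP1 (chrX:47441807-47446188, plus strand) varied least, from 67.6 CPM in HIEC6 to 115 CPM in HCT116 under hypoxia, a 1.71-fold range. TIMP2 (chr17:76849059-76921469, minus strand) ranged from 128 CPM in NCM460 to 667 CPM in HIEC6. TIMP3 (chr22:33197691-33259028, plus strand), which is held in the matrix and also inhibits some ADAM proteases, varied most of the 3. Without treatment it stood at 5.57 CPM in HCT116, 19.3 in DLD1, 29.6 in NCM460, 108 in HCT8 and 183 in HIEC6, and it reached 234 CPM in HCT8 under hypoxia. Several members lie over other genes, and the strand of the counting is not given in the sources used here. Of the overlapping genes in the table, SYN1 over TIMP1 had at most 102 counts, CEP295NL over TIMP2 at most 142, SYN3 over TIMP3 at most 16, C10orf55 over PLAU at most 41, RN7SL368P over PLAUR at most 61, and WTAPP1 over MMP1 at most 15.

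**Figure D2:**
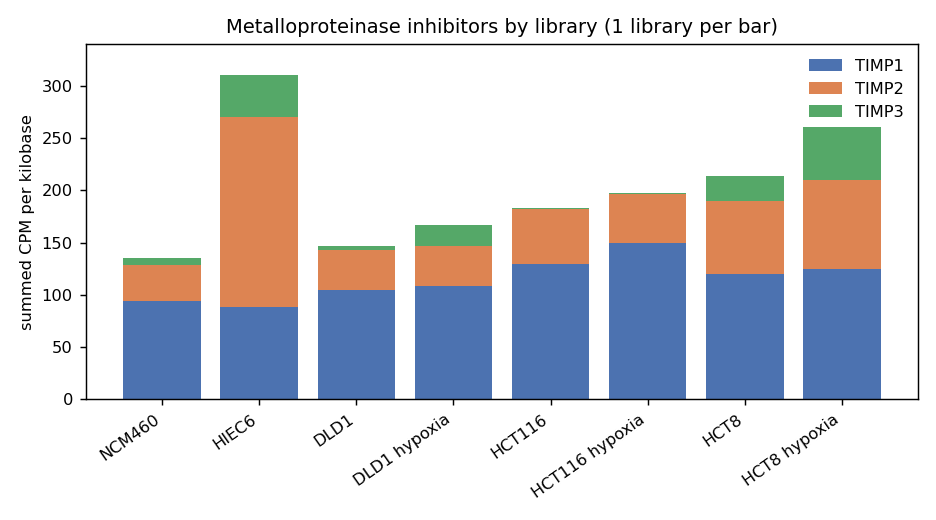
Summed CPM per kilobase of TIMP1, TIMP2 and TIMP3 (stacked colours) in the 8 libraries, 1 bar per library and with no error bars since there is 1 library per bar. HIEC6 stands out by its TIMP2, which made up 58.9% of the 3, while TIMP1 made up 56.1% to 71.1% in the other untreated libraries.

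Promoter sequence was read for the 6 members with an entry in the RefSeq table (MMP7, MMP14, PLAU, PLAUR, TIMP1 and TIMP3), from 250 bases before to 50 after each start. Since matrix protease genes are known targets of the AP-1 factors and hypoxia acts through factors that bind ACGTG, both strands were searched for the AP-1 letters TGANTCA, the hypoxia factor letters ACGTG and the TCF letters CTTTGAA. The AP-1 letters were found for MMP7 (offset -67 from the start) and PLAUR (offset -186), against 4.95% of 35116 promoters. The hypoxia factor letters were found for MMP14 (offset -96, read on the other strand as CACGT), PLAUR (offset 11) and TIMP1 (offset -231), against 21.4% of promoters. The TCF letters were found for MMP7 only among the 6, at offsets -194 and -109, against 4.43% of promoters. No pair of these matches overlapped. The windows around 4 of these matches are shown, with the motif in capitals, as examples of the AP-1 letters in 2 genes whose counts differed between lines and of the hypoxia factor letters in 2 genes compared under hypoxia. They are given 5′ to 3′ on the strand of the gene and in the coordinates of the RefSeq build GRCh38.p14, which differ from those of the gene positions above. The MMP7 window is chr11:102530797-102530825 and the PLAUR window chr19:43670338-43670366, both on the minus strand. The MMP14 window is chr14:22836478-22836504 and the TIMP1 window chrX:47582194-47582220, both on the plus strand.
MMP7: aaacactcaaaTGAGTCAcctatttccac
PLAUR: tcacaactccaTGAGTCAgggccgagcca
MMP14: gctaaaacaacCACGTccccaaccagg
TIMP1: aatagtgactgACGTGgaggtggggga

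HIEC6 was compared with the 3 untreated CRC lines to ask how far the protease and inhibitor genes differ between a line labelled normal and CRC lines. TIMP2, TIMP3 and MMP7 were higher in HIEC6 than in each CRC line, and PLAU was lower than in each. MMP2 had 0 counts in HIEC6, but HCT8 with 2 counts was also under the floor. TIMP2 stood at 667 CPM in HIEC6 (95% Poisson interval 660 to 674, counting error only) against 140, 191 and 257 CPM in DLD1, HCT116 and HCT8 (196 ± 58.6 CPM, SD, n = 3). TIMP3 stood at 183 CPM in HIEC6 (180 to 187) against 44.2 ± 55.3 CPM (SD, n = 3) in the CRC lines, which ranged from 5.57 to 108 CPM. PLAU stood at 3.17 CPM in HIEC6 (2.73 to 3.67), below the lowest CRC line at 6.39 CPM.

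These positions have to be read against the rest of the genes. Of the 7 members with enough counts to be tested, 3 lay above all CRC lines, as did 22.7% of the 18994 genes tested, and 2 (PLAU and TIMP1) lay below, as did 43.1%. MMP7 reached the counts needed for testing only in HIEC6 (43) and HCT116 (20), so the share of 22.7% is no fair background for it. The filter also leaves out genes with counts in HIEC6 alone, which these shares do not cover. MMP1 and MMP2 had too few counts for the test. TIMP1 fell below the CRC lines on the CPM scale (67.6 against 90.7 ± 9.76 CPM, SD, n = 3), but lay within their range on the TMM scale (77.2 against 76.6 to 98.6 CPM).

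The test made no call. With edgeR's quasi-likelihood test and Benjamini-Hochberg adjustment, 0 of 18994 genes (percent called 0) and 0 of the 7 members with enough counts passed an adjusted p of 0.05, while 2994 genes had an unadjusted p under 0.05. DESeq2 called 4206 genes (22.1%), TIMP2 among them as the only member. TIMP2 had a log2 fold change of 2.04 (SE 0.37) and an edgeR adjusted p of 0.194 (unadjusted 0.00476), with a DESeq2 adjusted p of 2.49e-06. The log2 difference of TIMP3 was 2.40 (SE 1.45, edgeR adjusted p = 0.462), that of PLAU -3.62 (SE 2.53, edgeR adjusted p = 0.51) and that of MMP14 -1.89 (SE 1.33, edgeR adjusted p = 0.512). MMP7 stood at 2.61 (SE 2.03), PLAUR at 0.80 (SE 1.48) and TIMP1 at -0.16 (SE 0.32) on the same scale, with edgeR adjusted p between 0.55 and 0.814. The median of the 7 members was 0.80, beside -0.19 over all genes tested. A single HIEC6 library entered, which the model takes to vary as the CRC lines do.

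With NCM460 beside HIEC6 as the group of normal lines, no member passed either. Of 19964 genes edgeR called 0 (542 at an unadjusted p under 0.05) and DESeq2 143 (0.716%). TIMP2 then had a log2 difference of 1.28 (SE 0.74, edgeR adjusted p = 0.999), and without HIEC6 it stood at -0.50. PLAU turned from -3.62 without NCM460 to 0.36 (SE 1.83) with it. The normal lines differed from each other in PLAU (108 CPM in NCM460 against 3.17 in HIEC6), TIMP2 (128 against 667 CPM) and TIMP3 (29.6 against 183 CPM).

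Set against HCT116, which it resembled across genes, the library labelled NCM460 had nearly the same PLAU level (108 against 120 CPM) but differed in other members. MMP2 was 14.4-fold and TIMP3 5.32-fold higher than in HCT116, MMP1 was at least 13.5-fold higher (38 counts against the floor of 3) and MMP14 was 2.81-fold lower. Among genes with at least 10 counts in either library, 9.31% were over 2-fold higher and 9.28% over 2-fold lower in NCM460. MMP1 and MMP2 met this count only in NCM460, so the share is no fair background for them. NCM460 carries the second library code and HCT116 does not, and there is no replicate check for this pair of libraries.

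The genes around the members in the same system showed where HIEC6 differed further. Vitronectin (VTN), a matrix and plasma protein that PLAUR can bind, reached 328 CPM in HIEC6 against at most 22.6 CPM in the untreated CRC lines. PLAT, the tissue-type activator, stood at 1.90 CPM in HIEC6 and between 0.209 and 8.36 CPM in these lines, while plasminogen itself (PLG) had 1 count in HIEC6 and 0 in all other libraries. Of the 12 genes of the plasminogen list 9 were tested, and 0 passed in either direction.

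The other inhibitors were also present in HIEC6. TIMP4 stood at 40.1 CPM there, 19.0 in DLD1, 0.0574 in HCT116 and 3.48 in HCT8, and RECK, a membrane-anchored inhibitor of metalloproteinases, at 13.4, 3.83, 9.32 and 9.04 CPM. All 5 tested genes of the list of other inhibitors and activators had a positive log2 difference, with a median of 1.12, beside -0.19 over all genes, and 0 passed. Of 19 other metalloproteinases 5 were tested and 0 passed. MMP15, another membrane-anchored enzyme, stood at 73.7 CPM in HIEC6 and 92.5 to 190 CPM in the untreated CRC lines. MMP3 had 0 counts in all 8 libraries, and MMP9, MMP10, MMP13 and SERPINB2 reached at most 0.176 CPM in any. The epithelial surface serine protease matriptase (ST14) stood at 3.95 CPM and its inhibitor SPINT1 at 0.317 CPM in HIEC6, against 200 to 583 and 151 to 384 CPM in the untreated CRC lines. In the list of 17 other proteases and inhibitors at or around the cell, which holds both, 7 of 13 tested genes had an unadjusted p under 0.05, as did 2994 of all 18994 genes, and 0 passed. The median log2 difference of the 13 was -4.14, beside -0.19 over all genes.

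Hypoxia was compared with no treatment within each CRC line and over the 3 lines. MMP2, MMP14, TIMP1 and TIMP3 were higher under hypoxia in all 3 lines by CPM, which 16.2% of the 21045 genes tested were, and no member was lower in all 3, which 26.4% of genes were. MMP2 had enough counts to be tested only through hypoxia libraries, so the share of 16.2% is no fair background for it. TIMP3 went from 19.3 to 89.5 CPM in DLD1, from 5.57 to 7.04 in HCT116 and from 108 to 234 in HCT8. The log2 differences were 2.21, 0.34 and 1.12, so that TIMP3 was over 2-fold higher in DLD1 and HCT8 and 1.26-fold higher in HCT116.

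The members over 2-fold higher were MMP1, MMP2 and TIMP3 in DLD1, MMP1 and MMP2 in HCT116 and TIMP3 in HCT8, among genes with at least 10 counts in either library of the pair. Over all such genes 11.2% were over 2-fold higher in DLD1, 12.4% in HCT116 and 14.4% in HCT8. In DLD1 and HCT116, MMP1 and MMP2 met this count only in the hypoxia library, so these shares are no fair background for them. The only member over 2-fold lower was PLAU in HCT116, where 25.7% of genes were, against 5.9% in DLD1 and 9.81% in HCT8. These calls rest on CPM by column total. On the TMM scale the log2 difference of PLAU in HCT116 was -0.84, which is under 2-fold.

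MMP14 showed a smaller difference that also depended on the line. It went from 5.78 to 11.2 CPM in DLD1 (log2 difference 0.96, 95% counting interval 0.76 to 1.16), from 26.3 to 36.7 in HCT116 (0.48, 0.38 to 0.58) and from 50.4 to 51.5 in HCT8 (0.03, -0.05 to 0.11). The difference was largest where the untreated level was lowest. TIMP1 differed by 0.05 in DLD1 and 0.05 in HCT8, with counting intervals that include no difference, and by 0.21 in HCT116 (0.16 to 0.26).

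PLAU and PLAUR did not move in one direction. PLAU went from 120 to 52.3 CPM in HCT116 and from 7.46 to 5.40 in HCT8, but from 6.39 to 9.12 in DLD1. PLAUR went from 73.0 to 107 CPM in HCT116 and from 5.22 to 8.70 in HCT8, but from 18.2 to 12.0 in DLD1. In each line the activator and its receptor had differences of opposite sign. TIMP2 changed little, with log2 differences of 0.02 in DLD1 and 0.29 in HCT8, and -0.17 in HCT116, where the sign turned to 0.18 on the TMM scale. HCT116 under hypoxia had the lowest TMM factor (0.79), which adds to every difference in that line on the TMM scale.

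MMP1 and MMP2 had the largest differences on few counts. MMP2 went from 6 to 121 counts in DLD1 (18.0-fold), from 5 to 113 in HCT116 (21.3-fold) and from 2 to 8 in HCT8 (4.63-fold, with a counting interval that includes no difference). MMP1 went from 0 to 36 counts in DLD1 (at least 10.7-fold higher, against the floor of 3 counts) and from 0 to 42 in HCT116 (at least 13.2-fold), but from 8 to 2 counts in HCT8. MMP7 had 20 and 24 counts in HCT116 and was at or under the floor in the other pairs.

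**Figure D3:**
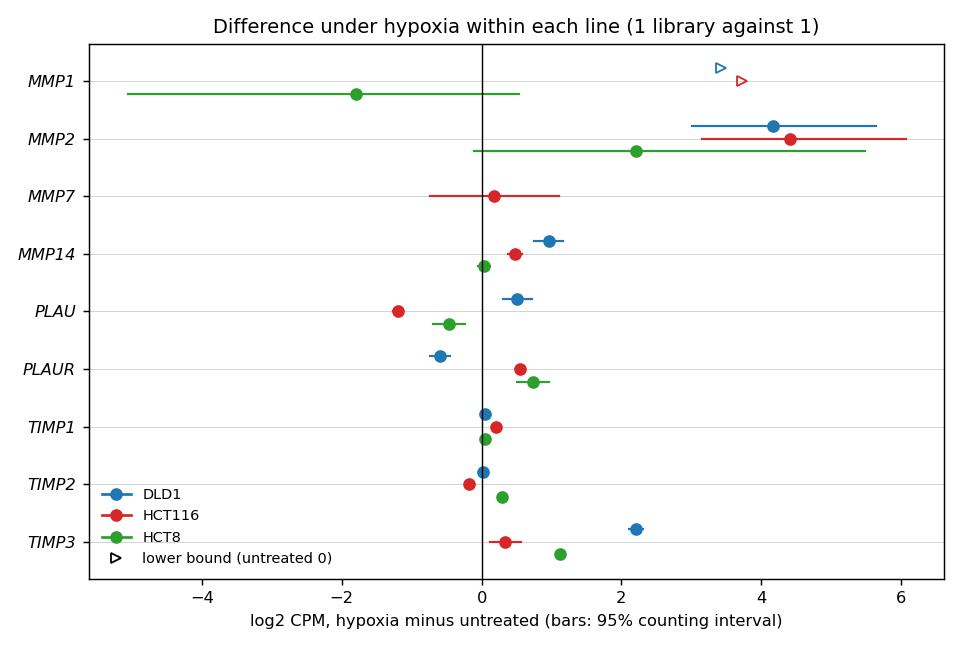
Log2 difference in CPM between the hypoxia and the untreated library of each CRC line (colours) for the 9 genes, with bars for the 95% counting interval and open arrowheads for lower bounds where the untreated library had 0 counts. MMP7 is drawn for HCT116 only, as both libraries were at or under 3 counts in the other lines. MMP2 and MMP1 in DLD1 and HCT116 lie farthest to the right, and PLAU and PLAUR lie on both sides of 0.

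Over the 3 lines, edgeR without a term for the line called 0 of 21045 genes (percent called 0, with 607 at an unadjusted p under 0.05) and DESeq2 55 (0.261%), with no member among them. With the line as a block edgeR called 200 genes (0.95%), 156 of them higher (0.741%). MMP2 was the only member called, with a log2 difference of 3.99 (SE 0.71, edgeR adjusted p = 0.0497), just inside the threshold. MMP2 reached the counts needed for testing only in DLD1 and HCT116 under hypoxia, as did MMP1. The filter thus favoured an upward difference for both genes, so this call does not by itself decide whether hypoxia raised MMP2. TIMP3 had a log2 difference of 1.36 (SE 0.29, edgeR adjusted p = 0.0779) and MMP14 one of 0.62 (SE 0.24, edgeR adjusted p = 0.216) in the blocked fit. MMP1, with 3.50 (SE 1.89, edgeR adjusted p = 0.368), did not pass, and neither did PLAU, PLAUR, TIMP1, TIMP2 or MMP7. DESeq2 with the block called 1666 genes (7.92%), including MMP2 and TIMP3. Without the HCT116 pair the blocked edgeR fit called TIMP3 (log2 difference 1.67, adjusted p = 0.00516). MMP2 lost its call without the HCT8 pair (log2 difference 4.45, edgeR adjusted p = 0.184) and with limma-trend (3.19, limma adjusted p = 0.0889), and had too few counts to be tested without the DLD1 or the HCT116 pair. The median over the 9 members in the blocked fit was 0.37, beside 0.03 over all genes.

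The second library code moved with MMP1 and MMP2. In the 3 libraries that carry it, which include untreated NCM460, MMP1 stood at 0.627 to 0.773 CPM and MMP2 at 1.38 to 2.11 CPM. In the 4 CRC libraries that lack it, they stood at 0 to 0.152 and 0.038 to 0.176 CPM. MMP1 and MMP2 were the only 2 of the 9 members higher in all 3 of the former than in all 4 of the latter, as were 1.05% of genes with at least 10 counts in 2 libraries. Both genes met that filter only through the 3 libraries with the second code. Their position was thus favoured by the filter, and the share is no fair background for them. A list of 14 fibroblast or mesenchymal markers summed to 49.0 to 101 CPM with the second code and 11.5 to 40.7 CPM in the 4 CRC libraries without it. Of the 14, 6 (VIM, COL1A2, COL3A1, COL6A3, DCN and THY1) were higher in all 3 of the former than in these 4. DCN and THY1 rest on few counts, 9 and 8 in NCM460 against 8 and 4 in untreated HCT116. Of these 6, the collagen gene COL1A2 stood at 7.99 CPM in NCM460, 11.5 in DLD1 and 13.1 in HCT116 under hypoxia, and at 0.461 to 1.25 CPM in the 4 others. Other markers of the list did not follow it. COL1A1 stood at 8.96 CPM in DLD1 under hypoxia, against 13.7 in untreated HCT116 and 14.2 in HCT8 under hypoxia. PDGFRB stood at 0.529 to 1.88 CPM with the second code, against 3.67 and 8.46 CPM in untreated and hypoxia HCT8. HIEC6, in which VIM made up most of the 1363 CPM of the list, had 0 counts of MMP1 and MMP2 and 0.458 CPM of COL1A2. With the code as a further term in the blocked fit, which then rests on the HCT8 pair, 3 genes were called, MMP2 had a log2 difference of 2.14 (SE 1.43, edgeR adjusted p = 0.957) and MMP1 one of -1.72. The part of these markers in the differences was not tested, and only the HCT8 pair, without the second code in either library, tells that code apart from treatment.

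**Figure D4:**
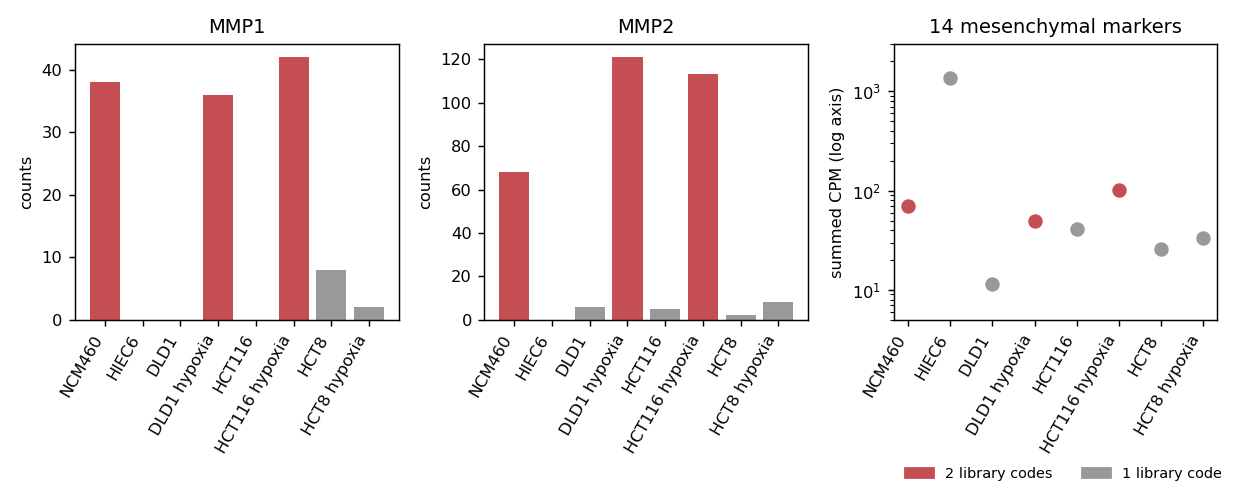
Counts of MMP1 (left) and MMP2 (middle), as bars from 0, and the summed CPM of 14 fibroblast or mesenchymal markers (right, log axis), in the 8 libraries. Red marks the 3 libraries with 2 library codes and grey the 5 with 1 code. MMP1 and MMP2 stand at 36 to 121 counts in the red libraries and at 0 to 8 in the grey ones, while the marker sum is highest in HIEC6, at 1363 CPM.

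The genes whose pattern over the 8 libraries was most like that of MMP2 were POSTN (r = 0.987) and COL3A1 (r = 0.974), which encode matrix proteins, by Pearson's r of log2(CPM + 0.5) among 16114 genes. For TIMP2 they were ANKS3 (r = 0.983) and ATL3 (r = 0.978), and for TIMP3 BAD (r = 0.978) and LOC105372824 (r = 0.968). These values describe 8 libraries that include pairs of the same line.

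Of the genes around the members, PLAT went under hypoxia from 0.371 to 1.95 CPM in DLD1 and from 0.209 to 0.901 in HCT8, but from 8.36 to 4.68 in HCT116. SERPINE2, a serpin that inhibits urokinase, went from 46.8 to 23.3 CPM in DLD1, from 212 to 225 in HCT116 and from 86.1 to 75.1 in HCT8.

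By list, 5 of 9 tested genes of the plasminogen system had an unadjusted p under 0.05 in the blocked fit, as did 3884 of all 21045 genes, and 0 passed after adjustment. Of the other metalloproteinases 6 were tested and 0 passed, and MMP15 stood at 76.4 to 140 CPM under hypoxia against 92.5 to 190 CPM without it. Of 15 matrix substrates 14 had a positive log2 difference, with a median of 0.83, beside 0.03 over all genes. Against 0.95% of all 21045 genes called, 1 of the 15 passed. This was FN1, which encodes fibronectin (log2 difference 2.80, SE 0.42, edgeR adjusted p = 0.0295). FN1 went from 5.47 to 55.8 CPM in DLD1 and from 14.2 to 92.6 in HCT116, but stood at 0.266 and 0.461 CPM in HCT8, and at 52.3 CPM in NCM460. Its high CRC libraries were those with the second code.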

How the data were processed

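Total RNA of the 8 cell line libraries was freed of ribosomal RNA and sequenced. The authors deposited raw read counts per gene, not normalised. Whether the 3 libraries with a second code in their descriptions join reads of more than 1 run is not given in the sources used here. The study's methods name GRCh37 as the reference, whereas the submitters' processing notes name HISAT2 2.0.4 and GRCh38. The gene counter and its strand setting are not given in the sources used here. All 8 columns were used. CPM was computed by column total (45519306 to 57374239 counts), and the floor was 3 counts. Poisson intervals and the floor cover counting error only.

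Genes reaching 10 counts in 2 or more of the libraries fitted were tested with edgeR 4.0.16 (quasi-likelihood test, TMM, Benjamini-Hochberg, threshold 0.05) in R 4.3.3, after a test on simulated data. Alternatives were DESeq2 1.42.0, limma-trend (limma 3.58.1), upper-quartile scaling, other filters, all 8 libraries in 1 fit, each library left out, and the cell line as a block. In the hypoxia comparison the replicate number is the cell line. Within a line, the departures of both libraries from the means of their groups correlated at 0.81 to 0.848 across genes, so the number pairs the samples. The members and gene lists were chosen with earlier results of these data known. All 9 members were described in full, with SERPINE2, SERPINB2, PLAT, MMP3, MMP9, MMP10, MMP13, MMP15, TIMP4 and RECK. By the rule, up to 2 further genes of each list in each direction were those with the largest change at a mean of at least 1 CPM. A further gene that the rule names is not reported here. PLG, ST14 and the cell type markers were named after their values were seen.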

Additional observations from a re-analysis of the deposited data

Results flagged for a closer look

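For 3 members the hypoxia difference had opposite directions in different lines with counting intervals that exclude 0 on both sides, and the difference between lines was not tested, as each line has 1 library per condition. PLAU had a log2 difference in CPM of 0.51 in DLD1, -1.20 in HCT116 and -0.47 in HCT8. PLAUR had one of -0.60 in DLD1, 0.55 in HCT116 and 0.74 in HCT8. TIMP2 had one of 0.29 in HCT8 and -0.17 in HCT116, but its opposite sign held only for CPM by column total. On the TMM scale TIMP2 stood at 0.18 in HCT116. MMP1 also pointed both ways, upward in DLD1 and HCT116 and from 8 to 2 counts in HCT8, where the counting interval includes no difference.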

How the results depend on the processing

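For HIEC6 against the untreated CRC lines, the count of genes called went from 0 to 4206 with DESeq2 (1 member), 42 with no filter beyond 1 count, 85 with limma-trend and 146 with all 8 libraries. For the normal lines against the CRC lines it went from 0 to 143 with DESeq2. For hypoxia it went from 0 to 55 with DESeq2 and to 200 with the replicate block (1 member), and with the block to 1666 with DESeq2 (2 members), 215 with upper-quartile scaling (1 member) and 113 with limma-trend. Leaving out 1 line's pair gave 6 to 738 genes, 6 without HCT8, 292 without DLD1 and 738 without HCT116, and 0 to 1 members. The block with the second code, added after the data were seen, gave 3.

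Among members, PLAU turned to 0.36 when NCM460 joined HIEC6. In the comparison of normal lines it turned to -3.62 without NCM460, -0.17 without DLD1, -0.17 without HCT8 and -0.44 with a replicate block. There the shared numbers join different lines and pair nothing. Without HIEC6, TIMP2 turned to -0.50 and TIMP3 to -0.39. No paired analysis was possible for HIEC6 alone, because it is a different line from each CRC line and pairs with none of them.

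Under hypoxia without a block, leaving out 1 library turned MMP14 to -0.027 (untreated DLD1), MMP7 to -0.10 (untreated HCT8), PLAU to 2.11 (untreated HCT116), PLAUR to -1.73 and TIMP1 to -0.070 (HCT116 under hypoxia) and TIMP2 to -0.042 (HCT8 under hypoxia). Each of these fits sets unequal sets of lines against each other, so differences between lines enter its values. With the block, MMP7 turned to -0.24 without HCT8 and PLAU to 0.033 without HCT116, and MMP1 to -1.72 with the second code. Without both hypoxia libraries of that code and without a block, HCT8 under hypoxia alone was set against the untreated CRC lines. PLAUR then stood at -2.07, TIMP1 at -0.046 and FN1 at -4.03. Differences between lines enter these values too. Within HCT8, PLAUR went from 5.22 to 8.70 CPM under hypoxia and FN1 from 0.266 to 0.461 CPM. Within HCT116, TIMP2 turned to 0.18 on the TMM scale and 0.24 on the upper-quartile scale. Upper-quartile scaling moved the median of all genes by -0.16 in the HIEC6 comparison. The low counts of MMP1, MMP2 and MMP7 limit what this depth can show of them.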
